A study of Mus musculus with 16 samples.

Results

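The exonic regions described here are stretches of open chromatin whose centre lay in an annotated exon of the mouse genome, outside the windows set around transcription start and termination sites. Peaks of 8 ATAC-seq libraries that touched or overlapped were joined into 16566 combined regions. Each region was placed by its centre on the GENCODE annotation of GRCm38 (mm10), first as promoter (1000 bp upstream to 100 bp downstream of any start site), then as termination site (100 bp upstream to 1000 bp downstream), then as exon, intron or intergenic. Of 865 regions in the exon class, the 850 with at most 50% soft-masked (repeat) bases were kept as members, 5.13% of all combined regions. The masking limit fell into a sparse range. The member nearest to it, at Ceacam19, was 45.4% masked and was detected in 2 libraries, and the nearest region left out, at Kif5a, was 52.7% masked and was detected in 1.

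The study asked how Brg1, the ATPase of SWI/SNF chromatin remodelling complexes, acts in activated B cells. ATAC-seq, in which a transposase cuts accessible DNA, was run on splenic B cells of C57BL/6 mice that had been enriched by depletion of CD43-bearing cells and activated in culture by LPS (10 µg/mL) together with IL-4 (20 ng/mL). The labels give 4 libraries of Brg1 fl/+ CD23Cre +/- and 4 of Brg1 fl/fl CD23Cre +/-, each from 50000 cells. The culture lasted 72 h by the sample labels and 96 h by the series text. Both genotypes carried the Cre, which is active in mature B cells, so the Brg1 fl/+ control had itself lost 1 allele of Brg1 in the cells that recombined. How many mice gave the libraries of a genotype is not stated in the labels, so p-values measure the spread between these libraries, which may be technical in part. The peak lists hold no measure of the deleted Brg1 exons, and the deletion was not checked in them.

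The lists held 6271 to 14614 peaks, and Brg1 fl/+ replicates 1 and 2 were the longest. Among B cell marker genes, Ms4a1 and Pax5 had a peak at a promoter in all 8 libraries, and Cd22 and Cd79b had none in any. Of 10 T cell markers, 9 had none and Lat had one in 1 library, and none of 10 myeloid markers had one. Summit fragments recovered from the lists were compared over 3971 regions. They differed within a genotype by 0.756 to 1.17 times, and between genotypes by 0.997 to 1.81 times, the variance that sampling alone gives. Libraries of one genotype thus differed by about the sampling noise in this measure, and some pairs by less. It covers those 3971 regions and not all 16566. Since it rests on peaks that passed each list's threshold, it cannot show that libraries differed by sampling alone. In bulk libraries, fewer cells with an open site and a site less open in each cell cannot be told apart.

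Most open chromatin of a mammalian cell lies at promoters, enhancers and insulators, and exons are a small part of the genome that serves mainly as template for RNA. Open chromatin in exons can belong to a promoter whose accessible stretch runs into the first exon, to an alternative promoter inside a gene, or to an enhancer or factor binding site that overlaps coding sequence. SWI/SNF complexes slide and evict nucleosomes, at promoters as well as enhancers.

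The sequences below show the kinds of exon that carry the results: strongly open coding exons far from any start site, the noncoding exons found in a single genotype, the pseudogene exon with the smallest adjusted p between genotypes, and a repetitive coding exon. Each is given 5′ to 3′ on the strand of its gene, from the mm10 reference. The first 4 span 201 bases around the best summit and can run past the exon into intron. In them, capitals mark matches to the motifs searched on either strand. Angptl6 lies at chr9:20878218-20878418 (minus strand, coding exon 2, E2A and SP/KLF motifs), Sptbn4 at chr7:27361485-27361685 (minus strand, coding exon 33, NRF1 and SP/KLF motifs), Tmem131l at chr3:84039173-84039373 (minus strand, exon 2 of a noncoding transcript, SP/KLF motif) and Gm33926 at chr7:67429440-67429640 (minus strand, exon 2 of a lincRNA, OCT and RUNX motifs). In Gm4076, at chr13:85127075-85127275 (minus strand, single exon of a processed pseudogene), capitals mark the 152 bases covered by 15-base words that also occur in the mitochondrial genome. The Hrnr stretch, at chr3:93326162-93326281 (plus strand, coding exon 3), has no capitals, and the same 120 bases occurred 7 times on chromosome 3.
Angptl6: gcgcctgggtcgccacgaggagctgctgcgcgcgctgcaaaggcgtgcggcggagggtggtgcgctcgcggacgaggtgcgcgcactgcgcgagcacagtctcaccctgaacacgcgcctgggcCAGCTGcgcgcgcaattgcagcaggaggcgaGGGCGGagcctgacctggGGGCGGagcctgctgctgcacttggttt
Sptbn4: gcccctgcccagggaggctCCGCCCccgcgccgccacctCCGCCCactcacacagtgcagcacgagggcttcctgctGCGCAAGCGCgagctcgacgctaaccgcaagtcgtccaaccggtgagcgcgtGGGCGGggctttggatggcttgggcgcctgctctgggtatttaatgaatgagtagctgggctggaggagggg
Tmem131l: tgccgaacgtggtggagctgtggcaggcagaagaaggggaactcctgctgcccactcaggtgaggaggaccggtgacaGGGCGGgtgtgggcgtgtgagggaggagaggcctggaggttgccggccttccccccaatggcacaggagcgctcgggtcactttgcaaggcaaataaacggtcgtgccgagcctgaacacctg
Gm33926: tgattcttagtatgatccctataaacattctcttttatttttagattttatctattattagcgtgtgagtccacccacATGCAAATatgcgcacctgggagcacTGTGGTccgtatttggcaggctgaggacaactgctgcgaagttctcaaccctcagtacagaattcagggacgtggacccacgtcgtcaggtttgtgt
Gm4076: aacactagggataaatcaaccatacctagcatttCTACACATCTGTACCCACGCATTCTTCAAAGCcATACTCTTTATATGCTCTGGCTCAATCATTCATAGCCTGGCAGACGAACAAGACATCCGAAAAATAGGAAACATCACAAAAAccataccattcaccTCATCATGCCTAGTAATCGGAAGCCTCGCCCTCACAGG
Hrnr: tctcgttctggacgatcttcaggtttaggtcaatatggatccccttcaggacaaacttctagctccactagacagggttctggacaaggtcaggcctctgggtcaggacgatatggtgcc

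Although the promoter windows had been removed, most exonic regions still lay beside a start site. The centre was within 200 bp of the nearest transcription start site in 428 members, within 500 bp in 607 (71.4%) and beyond 1000 bp in 192 (22.6%), with a median distance of 199 bp. It was downstream of that start site in 811. The region itself reached into a promoter window in 571 members (67.2%), and the best summit of the 8 libraries fell in a promoter window in 364, in an exon in 421, in an intron in 56 and in a termination window in 9. A name that places them away from promoters goes against these positions for most members, and they are called exonic regions here. Only 41 members were more than 10000 bp from a start site.

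The kinds of exon followed this position. The centre fell in coding sequence in 359 members, in a 5′ UTR in 273, in a 3′ UTR in 49 and in an exon of a noncoding transcript in 169. The exon was the first of its transcript in 645 members (75.9%). Host genes were protein-coding for 746 members, and the 850 members lay in 834 distinct genes. Members were 534 bp wide at the median, against 601 bp for promoter and 392.5 bp for intronic regions.

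Base composition put the exonic regions close to promoters. The median GC content was 66.1%, against 65.1% in promoter and 51.8% in intronic regions. The ratio of observed to expected CpG, which is high in CpG islands, was 0.793 at the median, against 0.818 and 0.262. Composition split with distance from start sites. The ratio reached 0.6 in 86.3% of the 658 members within 1000 bp and in 30.2% of the 192 beyond 1000 bp, while it did so in 7.01% of 2155 intronic regions beyond 1000 bp. Of the distant members, 74 lay in coding sequence, 41 in a 3′ UTR, 6 in a 5′ UTR and 71 in noncoding exons, and 112 were in the last of several exons.

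**Figure D1:**
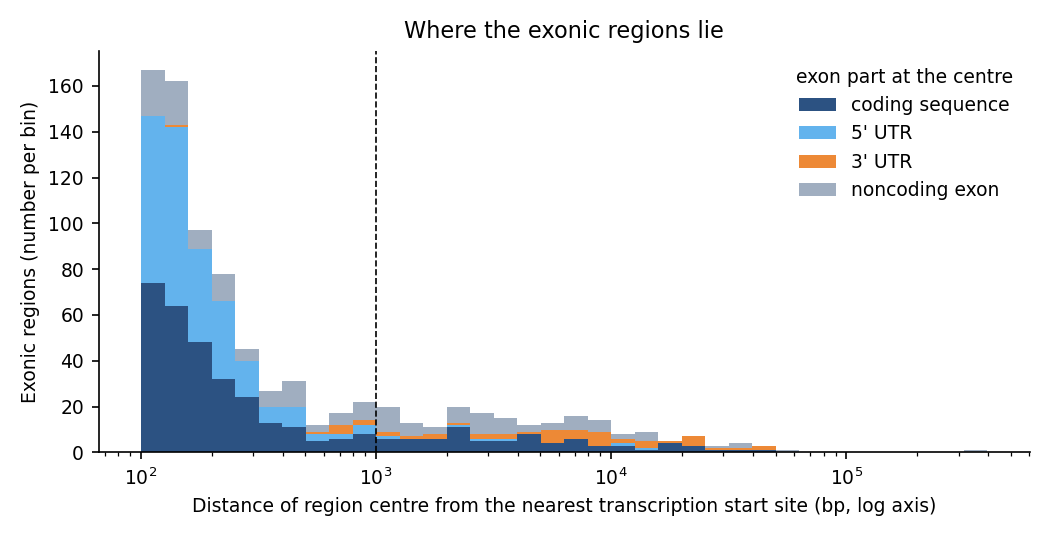
Number of exonic regions (y axis) by distance of the region's centre from the nearest transcription start site (x axis, bp, log axis), coloured by the part of the exon at the centre. The dashed line is at 1000 bp, and 658 of the 850 regions lie to its left, where coding and 5′ UTR exons make up most bars.

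Detection of the exonic regions differed widely between libraries of 1 genotype. Detection in a library meant that it had a peak sharing 1 bp or more with the region. In Brg1 fl/+, replicates 1 to 4 detected 92.6%, 66.4%, 31.3% and 35.5% of the members. In Brg1 fl/fl, replicates 1 to 4 detected 49.5%, 28.9%, 44.8% and 46.2%. The genotypes overlapped, since Brg1 fl/+ held both the highest values and 2 of the 3 lowest. The mean of Brg1 fl/+ was 56.4% ± 28.7 and that of Brg1 fl/fl 42.4% ± 9.18 (SD, n = 4 each). The difference of -14.1 percentage points was smaller than the SD in Brg1 fl/+ (exact permutation test, two-sided, 70 assignments, p = 0.4, where the smallest p possible is 0.0286). Without Brg1 fl/+ replicate 1, which has the longest list, it was -2.11 points (exact permutation p = 0.886).

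Scaled to the other classes within each library, exonic detection lay between promoter and intronic detection in all 8. It was below promoter detection by 18.6 points ± 10.1 in Brg1 fl/+ against 23.2 ± 1.06 in Brg1 fl/fl (SD, n = 4 each), a difference of -4.58 points (exact permutation p = 0.514) that changed sign without Brg1 fl/+ replicate 1 (0.25 points, exact permutation p = 0.943). It was above intronic detection by 17.0 points ± 4.28 and 23.7 ± 4.22 (SD, n = 4 each). This gap was 6.66 points wider in Brg1 fl/fl (exact permutation p = 0.114), and it passed the threshold of 0.05 only without Brg1 fl/fl replicate 2 (8.90 points, exact permutation p = 0.0286, the smallest possible). It was 0.744 points with no limit on masked bases (exact permutation p = 0.8), 0.548 with wider promoter windows, which did not pass either, and 12.1 among regions found in at least 2 libraries (exact permutation p = 0.0571).

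**Figure D2:**
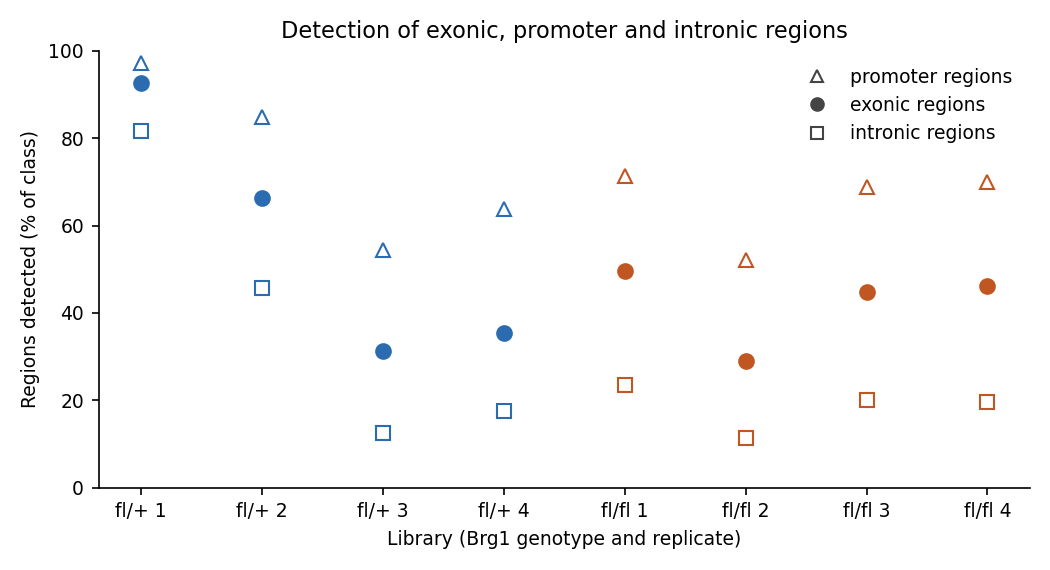
Percent of exonic (filled circles), promoter (triangles) and intronic (squares) regions that each library detected, by genotype (blue Brg1 fl/+, orange Brg1 fl/fl). Exonic regions sit between the other classes in every library, from 28.9% to 92.6%.

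No kind of exon separated the genotypes. Coding members were detected in 57.7% ± 26.6 of cases in Brg1 fl/+ against 46.7% ± 8.57 in Brg1 fl/fl, and members in 5′ UTRs in 63.2% ± 28.9 and 50.0% ± 12.9 (SD, n = 4 each). Members in 3′ UTRs, at 34.7% ± 38.3 and 10.2% ± 4.41, and in noncoding exons, at 49.1% ± 30.9 and 30.2% ± 6.05, had lower means in both (SD, n = 4 each). Over these 4 kinds and 3 classes of distance, the 7 exact permutation p-values were 0.371 to 0.486 and the Benjamini-Hochberg adjusted p was 0.486 for each.

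Exonic regions were also the stronger peaks when compared with introns inside a library. Peaks were ranked by q within each list, in percent from the best, so that a low rank is a strong peak. The median rank of exonic regions was 62.1% on average over the 8 libraries, against 76.9% for intronic and 41.2% for promoter regions. The exonic median was lower than the intronic one in 8 of 8 libraries, by 14.8 points ± 2.79 (SD, n = 8; two-sided exact sign-flip test, p = 0.00781, the smallest possible).

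The members, drawn from these same 8 lists, were split by distance from start sites after their detection had been seen. The p-values for distance therefore describe how alike the libraries were and are no independent support. Members within 1000 bp were detected in 55.9% of cases on average and those beyond 1000 bp in 27.1%, a gap of 28.8 points ± 10.1 with the same sign in 8 of 8 libraries (SD, n = 8; exact sign-flip p = 0.00781, adjusted p = 0.0312 over 4 comparisons of distance). The gap did not differ detectably between genotypes (8.58 points wider in Brg1 fl/fl, exact permutation p = 0.286). The median rank was 7.77 points ± 11.7 worse for the distant members, with the same sign in 6 of 8 libraries (SD, n = 8; exact sign-flip p = 0.109), and this passed the threshold only without Brg1 fl/+ replicate 3 (10.6 points, exact sign-flip p = 0.0312).

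Against intronic regions that were also beyond 1000 bp, the exonic ones ranked better, while the difference in detection did not pass the threshold. Detection was 27.1% and 25.8% on average, a difference of 1.33 points ± 2.91 with range -1.86 to 6.49 (SD, n = 8; exact sign-flip p = 0.25). Their median rank was 68.7% against 82.0%, better by 13.3 points ± 9.82 and in 7 of 8 libraries (SD, n = 8; exact sign-flip p = 0.0156, adjusted p = 0.0312). The exception was Brg1 fl/+ replicate 1, where the exonic rank was 3.10 points worse. Ranks exist only for detected regions, and that library detected 165 of the distant exonic ones. Brg1 fl/+ replicate 2 detected 78, with ranks of 75.4% for exonic and 79.8% for intronic regions. The other libraries detected 20 to 35 each. In Brg1 fl/+ replicate 3, which detected 20, the ranks were 54.3% and 82.8%. Distance was not matched beyond this limit: the median was 3997 bp for the exonic and 8799 bp for the intronic regions, and 21.4% and 45.7% were over 10000 bp. These distance classes were chosen after the positions and detection of the members had been seen.

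**Figure D3:**
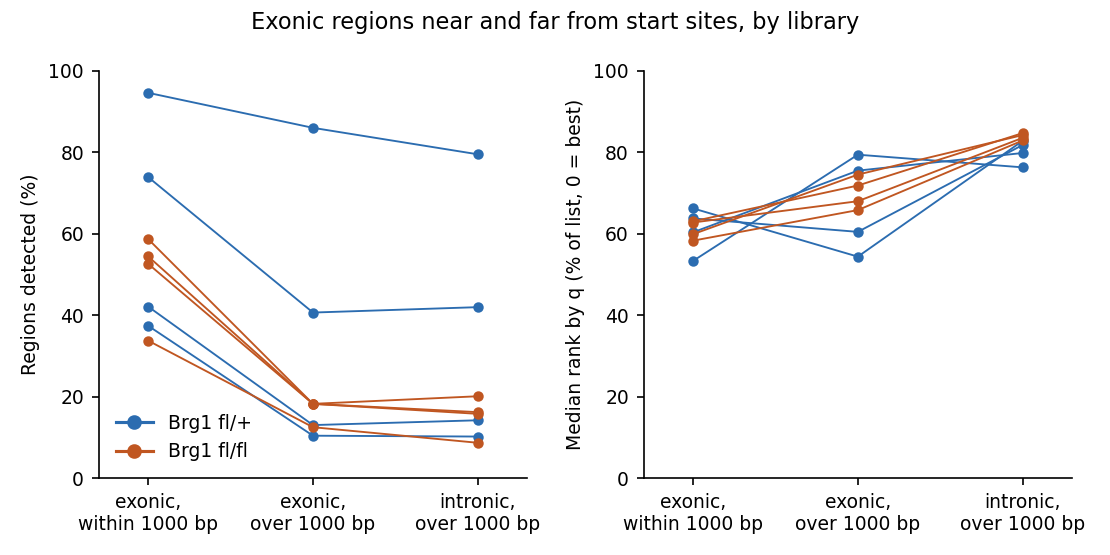
Percent of regions detected (left) and median rank by q in percent of the list, with 0 the best peak (right), for exonic regions within 1000 bp and beyond 1000 bp of a start site and intronic regions beyond 1000 bp. Each line is 1 library (blue Brg1 fl/+, orange Brg1 fl/fl). Every line falls from near to distant exonic regions on the left, and 7 of 8 rise from distant exonic to intronic regions on the right.

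Few of the members were steady across the libraries. A total of 174 (20.5%) were detected in all 8 libraries, against 42.8% of promoter and 5.16% of intronic regions, and 266 (31.3%) in 1 library only. Of these 266, 215 came from Brg1 fl/+ replicate 1. Among the distant members, 13 of 192 (6.77%) were found in all 8 libraries and 93 in Brg1 fl/+ replicate 1 alone. Of the 2155 intronic regions beyond 1000 bp, 59 (2.74%) were found in all 8.

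The exonic region with the best rank in its worst library was one of these distant ones. It covered coding exon 2 of Angptl6, which encodes a secreted angiopoietin-like protein (ENSMUSG00000038742.7, chr9:20877934-20878507, 1506 bp from the nearest start site). Its summit fold, the deposited ratio of signal at the summit to the local background of the library, was 17.3, 18.1, 15.3 and 16.1 in Brg1 fl/+ against 16.9, 16.9, 16.3 and 17.8 in Brg1 fl/fl (replicates 1 to 4). The genotypes overlapped throughout. The peak stood within the best 2.79% of every list. The genotype difference was 0.16 ± 0.09 (log2, SE) with an adjusted p of 0.318 by limma, the fit described with the genotype results. It was called under 1 of 18 alternatives, the fit of recovered fragments (0.48, limma adjusted p = 0.0345), and was 0.03 without normalization.

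The other distant members found in all 8 libraries make up a mixed group, named here after their values had been seen. Of the 13, 9 lay in coding sequence, 3 in noncoding exons and 1 in a 5′ UTR, and their median folds over the libraries ran from 8.26 to 16.9. Exon 5 of the antisense RNA A430078I02Rik had a median fold of 15.3 (range 10.7 to 17.2). Coding exon 33 of Sptbn4, a beta spectrin of the membrane skeleton, had 14.4 (11.7 to 17.1). Sptbn4 and Unc13a, which primes synaptic vesicles, are best known from neurons.

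The last exon of Unc13a had a median fold of 10.8 (9.07 to 13.5). Coding exon 4 of Espn, an actin bundler of sensory hair cells, had 10.2 (7.04 to 11.7), and coding exon 2 of Klf1, an erythroid transcription factor, had 9.12 (6.30 to 10.5). Gdf15, a stress-induced cytokine of the TGF-beta family, had folds of 6.11 to 13.1 over its last coding exon, with means of 9.34 ± 3.11 in Brg1 fl/+ against 11.7 ± 1.16 in Brg1 fl/fl (SD, n = 4 each). Its genotype difference had the largest size of the 13, 0.56 ± 0.14 (log2, SE), and did not pass the threshold (limma, adjusted p = 0.0573). It passed under 3 of 18 alternatives. None of the 13 passed in the fit as reported, where 1.33% of all regions tested were called lower and 1.09% higher. At an unadjusted p under 0.05 there were 2 of the 13, against 21.5% of all regions tested.

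By the rule of the best worst rank, 9 further members with strong peaks in every library were picked out. Most were first exons beside their start site. They included coding exon 1 of Ptpn2, a tyrosine phosphatase that restrains JAK and STAT signalling, whose folds were 12.5 to 17.4 (median 13.7). The 5′ UTR exon of Gsk3b, a kinase of Wnt and insulin signalling, ran from 9.85 to 12.5 (median 10.5). That of Eloa, elongin A of the transcription machinery, ran from 11.3 to 19.8 (median 16.2).

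The others were the 5′ UTR exons of the Golgi GTPase Rab33b (median 14.5), the phosphatase subunit Ppp6r1 (15.2) and the aconitase and iron regulator Aco1 (12.8), coding exon 1 of Gm38431 (13.8), exon 1 of the pseudogene B330016D10Rik (13.6), and A430078I02Rik given above. None of these 10 members passed the threshold between genotypes, with adjusted p from 0.125 to 0.883 (limma). Of all regions tested, 1.33% were called lower and 1.09% higher.

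The genotype comparison by presence leaned towards fewer Brg1 fl/fl libraries, as it did for all regions. Of the 850 members, 467 (54.9%) had peaks in a smaller number of Brg1 fl/fl libraries, where the share of all 16566 regions was 47.2%. Another 114 (13.4%) were detected in more Brg1 fl/fl libraries, against 16.7% of all regions, and 269 in equal numbers. The lean was smaller without Brg1 fl/+ replicate 1. Regions were then joined anew, and the shares of each genotype's libraries were compared in place of their numbers. The counts were 235 and 200 of 593 exonic regions (39.6% and 33.7%, against 35.1% and 30.5% of all regions). With the same number of peaks taken from each list the lean turned, to 90 lower and 118 higher of 371 (24.3% and 31.8%, against 23.2% and 24.8% of all regions). By distance, 78.1% of distant exonic, 48.2% of near exonic and 76.9% of distant intronic regions were in fewer Brg1 fl/fl libraries.

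Complete separation of the genotypes was rare. In 2 members every Brg1 fl/+ library had a peak and no Brg1 fl/fl library had one, where 0.404% of all regions did so, and in 0 members the reverse held, against 0.169% of all regions. The first was a 333 bp region in Tmem131l (ENSMUSG00000033767.14, chr3:84039104-84039436, 858 bp from a start site), a transmembrane protein, centred in exon 2 of a noncoding transcript. Its folds in Brg1 fl/+ replicates 1 to 4 were 6.59, 7.80, 5.30 and 7.26. The second lay over exon 2 of the lincRNA Gm33926 (ENSMUSG00000109329.1, chr7:67429244-67429835, 14393 bp from a start site), with folds of 7.15, 8.70, 5.47 and 7.07. Both were peaks of middle to low rank, from 51.4% to 85.8% and from 57.9% to 88.6% of the lists. No fold is given for Brg1 fl/fl, since a list holds only peaks past its own threshold. Neither separation held at a −log10 q of at least 5 or with equal list lengths, where the count was 0 (against 47 of 13362 and 52 of 9006 regions of any class).

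The summit fold could be compared where all 8 libraries had a peak. The log2 folds of the 4593 regions of any class found in all 8 were quantile normalized and fitted by limma, with Benjamini-Hochberg adjustment over all 4593 and a threshold of 0.05. Of the 174 members tested, 4 were lower in Brg1 fl/fl (against 1.33% of all regions tested) and 1 was higher (0.575%, against 1.09%), and 33 had an unadjusted p under 0.05 (19.0%, against 21.5%). A member had to be a peak in all 8 libraries to be tested, so these 174 do not stand for the 850. The median difference of the members was 0.06 on the log2 scale, beside 0.01 over all regions tested. Without normalization the median of all regions moved to -0.17 and the calls were 5 lower and 0 higher (2.87% and 0%, against 2.26% and 0.0871% of all regions). From summit fragments recovered from fold and p they were 7 and 12 (4.02% and 6.90%, against 2.50% and 7.52%), and from ranks 6 and 5 (3.45% and 2.87%, against 2.05% and 2.70%). The deposited names hold letters that were read as joining replicate 1 with 2 and replicate 3 with 4. The labels do not state whether such libraries share a mouse. When they were averaged, a choice made after seeing the data, no member passed (0 lower and 0 higher). Of all 4593 regions, 1 was then called lower and 2 higher. In that fit, 24 members had an unadjusted p under 0.05 (13.8%, against 16.4% of all regions).

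The smallest adjusted p of the members belonged to Gm4076, a processed pseudogene of a single exon (ENSMUSG00000096449.2, chr13:85126728-85127384). Its folds were 29.8, 31.3, 29.5 and 28.2 in Brg1 fl/+ against 18.9, 16.1, 13.9 and 16.4 in Brg1 fl/fl (replicates 1 to 4). All Brg1 fl/+ values lay above all Brg1 fl/fl values. The difference was -0.79 ± 0.11 (log2 normalized fold, SE; limma, adjusted p = 0.00933), and it was called under 17 of 18 alternatives, the exception being the averaged libraries. Words of 15 bases shared with the mitochondrial genome made up 53.8% of the region, and 1 copy of at least 100 bp at 95% identity or more lay elsewhere in the genome. Of 7 other regions with 20% or more of such words, 6 could be tested, with differences from -0.32 to 0.33 and 0 calls. The seventh, an intergenic region on chromosome 6 with 84.3% of such words, had a peak in 4 Brg1 fl/+ and 0 Brg1 fl/fl libraries. The part of mitochondrial reads in the Gm4076 value was not tested.

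The other 3 lower members were weaker peaks near start sites. Rilp, which links late endosomes and lysosomes to the dynein motor, carried a region over the first exon of a noncoding transcript (ENSMUSG00000038195.6, chr11:75510301-75510909). Its folds were 16.1, 12.9, 11.8 and 10.7 in Brg1 fl/+ against 7.57, 5.63, 7.89 and 5.25 in Brg1 fl/fl. The groups did not overlap, and the difference was -0.81 ± 0.15 (log2, SE; limma, adjusted p = 0.0242). The call was lost without Brg1 fl/+ replicate 1 or 2 or Brg1 fl/fl replicate 1, and held under 13 of 17 alternatives.

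Cdkn2b, an inhibitor of cyclin-dependent kinases, had a region centred in the 5′ UTR of its first exon (ENSMUSG00000073802.5, chr4:89310577-89311268). The folds were 12.8, 11.9, 10.3 and 9.06 in Brg1 fl/+ against 6.73, 6.17, 6.73 and 7.44 in Brg1 fl/fl, again without overlap. The difference was -0.50 ± 0.11 (log2, SE; limma, adjusted p = 0.0358). Of the libraries left out in turn, the call held only without Brg1 fl/+ replicate 4, and it held under 6 of 17 alternatives in all.

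C030013C21Rik, a noncoding RNA annotated as sense intronic, was the fourth (ENSMUSG00000085078.1, chr11:80507990-80509192). Its folds were 8.32, 9.88, 6.70 and 7.22 in Brg1 fl/+ against 4.46, 4.35, 6.28 and 4.34 in Brg1 fl/fl, which did not overlap. The difference was -0.63 ± 0.14 (log2, SE; limma, adjusted p = 0.0358), called under 7 of 16 alternatives and, of the libraries left out, only without Brg1 fl/fl replicate 3. Zfx, an X-linked zinc finger transcription factor, was the single higher member, centred in its 5′ UTR (ENSMUSG00000079509.10, chrX:94122270-94123232).

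The Zfx folds were 10.4, 8.65, 6.39 and 7.92 in Brg1 fl/+ against 10.7, 8.17, 9.32 and 10.2 in Brg1 fl/fl, so that the groups overlapped before normalization. The fitted difference was 0.42 ± 0.10 (log2, SE; limma, adjusted p = 0.0412), called under 6 of 17 alternatives and under none of the 8 that left out a library. Gmps, which makes GMP for nucleotide synthesis, missed the threshold with a larger size, -0.86 ± 0.21 (log2, SE; limma, adjusted p = 0.0506), and was called under 6 of 16 alternatives.

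**Figure D4:**
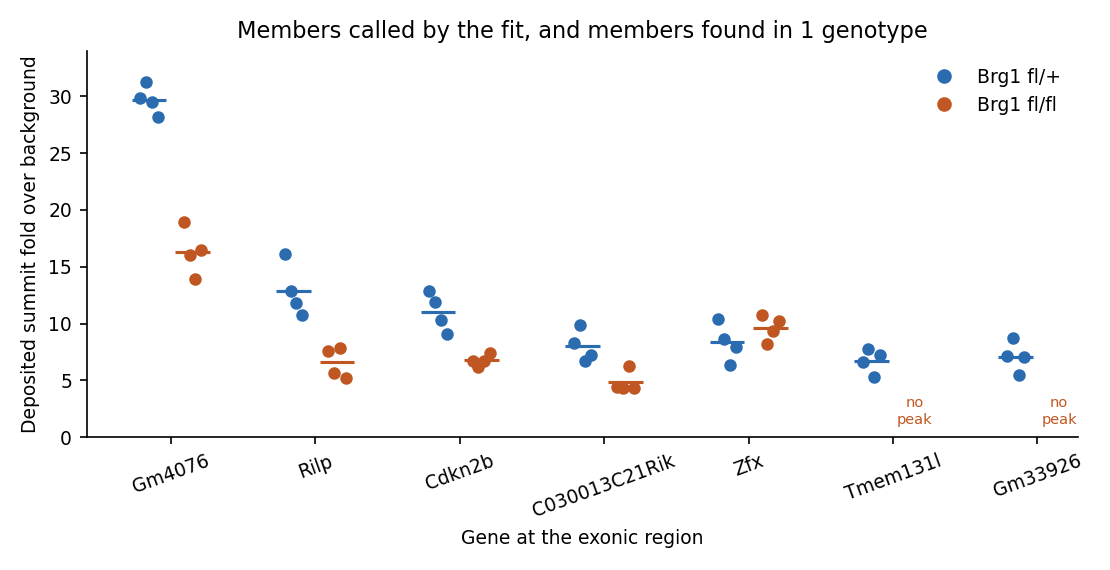
Deposited summit fold over local background (y axis, linear) of the 5 members called by the limma fit and the 2 found only in Brg1 fl/+, with 1 point per library and a bar at the mean (blue Brg1 fl/+, orange Brg1 fl/fl; "no peak" where no library of the genotype has one). Gm4076 stands highest, at 28.2 to 31.3 and 13.9 to 18.9, and the Zfx groups overlap.

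Genes of B cell activation held exonic regions at a share near that of all genes. Of 220 genes in 6 lists (antigen receptor signalling, B cell transcription factors, LPS, IL-4 and NF-kB signalling, cell cycle, SWI/SNF subunits, chromatin regulators), 10 held 1 member each (4.55%), and of 21951 protein-coding genes in the annotation 731 held one (3.33%). These 10 lay in fewer Brg1 fl/fl libraries in 4 cases, more in 2 and equal numbers in 4, and 3 were found in all 8, with none past the threshold of the fit. The chromatin regulators, 47 genes, held 0 members.

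The 3 steady ones were Smarcb1, a core SWI/SNF subunit (folds 7.79 to 12.7), E2f5, a repressor of the cell cycle (7.48 to 14.9), and Cdkn2c, an inhibitor of cyclin D kinases (8.15 to 14.4). Jak1, the kinase below the IL-4 receptor, was found in 7 libraries, all but Brg1 fl/+ replicate 3. Rbl2, a relative of the retinoblastoma protein, was found in 2 of 4 libraries of each genotype.

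The other 5 were seen in 1 or 2 libraries. Fcgr2b, the inhibitory Fc receptor of B cells, and H2-Ab1, an MHC class II chain, had peaks only in Brg1 fl/+ replicates 1 and 2, with folds of 5.22 and 4.72 and of 6.30 and 5.95. Irf4, needed for germinal centre and plasma cells, had a peak over coding exon 8 in Brg1 fl/+ replicate 1 alone (5.11). Egr1, an early response factor, had one in Brg1 fl/+ replicate 2 alone (3.74), and Icosl, the ligand of ICOS, in Brg1 fl/fl replicate 1 alone (3.67). Variable segments of the antibody heavy chain held 4 members, each found in 1 or 2 libraries.

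A small set of coding exons stood out by repetition within the region. In 22 members (2.59%), at least 20% of the 15-base words occurred more than once in the region, against 0.355% of promoter and 17.5% of intronic regions. Of these 22, 16 lay beyond 1000 bp from a start site, 15 were coding, and 3 were found in all 8 libraries. The soft-masking limit left them in, with a median of 0.398% masked bases. Of the 22, 11 were in more Brg1 fl/fl libraries and 5 in fewer, where 16.7% and 47.2% of all regions were. This count was made after the values had been seen and was not tested.

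The widest of these regions lay in genes of skin, cytoskeletal and mucin proteins with long repeats, while others of the 22 lay in unrelated coding genes such as Dach1 and Fam186a or in noncoding exons. Flg and Hrnr, S100 fused-type proteins of the cornified epidermis, held the widest member (8420 bp in Flg) and 2 others of the 5 widest (2761 and 2110 bp in Hrnr), with 98.6%, 98.9% and 97.9% repeated words. Eppk1, epiplakin of the cytoskeleton, had 3078 bp with 96.2%, and the mucin Muc4 2640 bp with 70.9%. In Hrnr a unit of 1044 bp recurred at 99.7% identity. The Flg region, at chr3:93284357-93292776, had folds of 4.36 to 6.64 in the 8 libraries, and that of Eppk1, at chr15:76102699-76105776, 7.46 to 11.5.

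Muc5b, a gel-forming mucin, was the only gene with 3 members, all in its exon 31 of 8019 bp and each found in 1 or 2 libraries. Muc6, a mucin of the stomach, was found in all 8 (folds 5.53 to 8.75). Hrnr, in both of its regions, and Plin4, a lipid droplet protein, had peaks in 1 Brg1 fl/+ and 3 Brg1 fl/fl libraries, and Muc4 and the mucin-like Gm9573 in 1 and 4. The part of read placement among the repeats in these peaks was not tested.

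**Figure D5:**
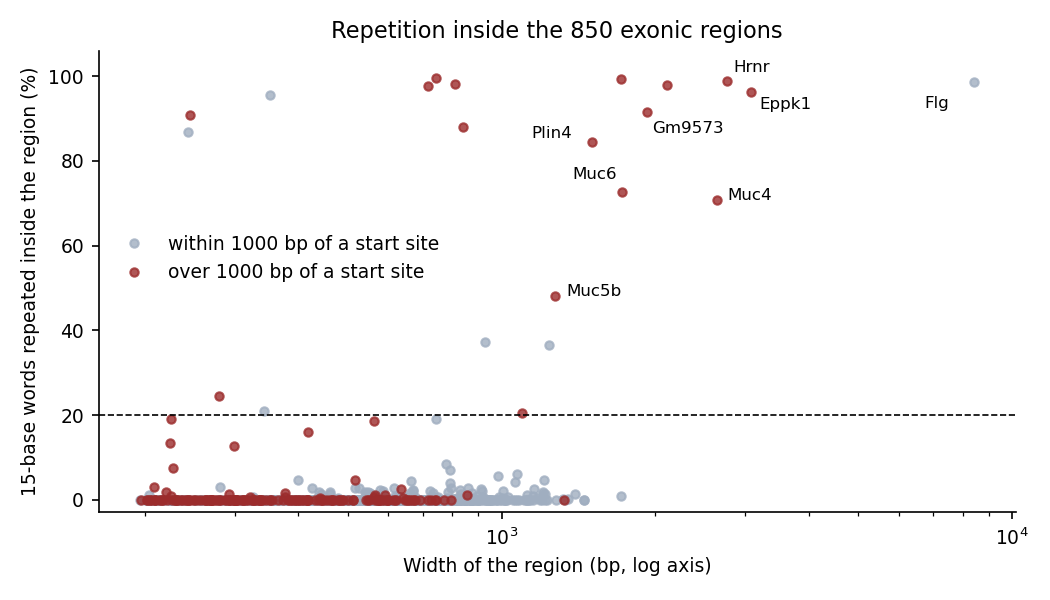
Share of 15-base words that occur more than once inside the region (y axis, percent) against its width (x axis, bp, log axis) for the 850 exonic regions, grey within 1000 bp and red beyond 1000 bp of a start site. The dashed line is at 20%, and 22 regions lie above it, with Flg the widest at 8420 bp.

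Near-identical copies elsewhere in the genome, of at least 100 bp and 95% identity, were found for 36 members (4.24%), against 2.52% of promoter and 3.31% of intronic regions, and their peaks are uncertain in place. Replication-dependent histone genes were the main family. Of 11 members in the Hist1 cluster on chromosome 13, 9 were coding and 6 had such copies, and 1, Hist1h4c, was found in all 8 libraries. The interferon genes Ifnz, Gm13285 and Gm13288 on chromosome 4 had 12, 13 and 13 copies and were found in 2 or 3 libraries each.

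The motifs near the summits, searched as fixed letters on both strands within 201 bases, had shares nearer to promoters in the near members and nearer to introns in the distant ones for SP/KLF and RUNX. The SP/KLF motif GGGCGG was present in 57.8% of near and 20.8% of distant members, against 68.1% of promoter, 18.5% of intronic and 47.8% of all regions. The RUNX motif TGTGGT was present in 6.84% of near and 17.7% of distant members, against 7.03% of promoter, 18.5% of intronic and 11.3% of all regions. The AP-1 motif TGANTCA, at 5.21% of distant members, was rarer than in introns (10.1%), with 4.80% in all regions. The motif CAGCTG of E2A, a factor of B cell development, was found in 13.7% of near and 20.3% of distant members, and in 15.2% of all members. Its share was 9.57% of promoter, 14.1% of intronic and 11.3% of all regions. A match to the CTCF core (CCA, any 2 bases, AG, any 2 bases, GGC) was present in 4.24% of members and 2.78% of all regions. Motifs can overlap each other, and these shares are descriptions with no test.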

How the data were processed

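ATAC-seq was analysed in the 8 libraries (4 Brg1 fl/+, 4 Brg1 fl/fl), grouped by the labels. Per the labels and methods, the authors used Bowtie2 for alignment to mm10, and MACS2 gave 1 peak list a library. Versions and options are not given in the sources used here. Deposited values were the summit's fold over local background (a ratio), −log10 p, −log10 q, a score and a summit offset. The score was not used. These values depend on depth, so short lists miss weak regions. Peaks were joined and placed with the vM21 GENCODE annotation, and masked bases were read from the GRCm38 reference (52 regions could not be read). Fold was fitted with limma 3.58.1 in R 4.3.3 in place of the coverage test of the authors. Precision is limited by 4 libraries a genotype and by depth, with the lowest background at summits 0.541 to 1.67 fragments (recovered within 0.002 of the deposited −log10 p, for 99.7% to 99.9% of the peaks examined). Copies were found with minimap2. Scripts were tested on simulated data.

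Named members were the 10 with the best worst rank in all 8 libraries, those in all libraries of one genotype and none of the other, those past the fit's threshold, those in the gene lists, genes with 3 or more members, and the 5 widest; others were named after their values had been seen. Members and lists were chosen with earlier results of these data known. Alternatives were stricter peaks (−log10 q of 5 or 10), equal list lengths, 50% overlap, at least 2 libraries, other masking limits, promoter windows and transcripts, other scalings, the replicate block, and each library left out. Lifting the masking limit left the fit of each named member unchanged, so that alternative could not change its call. Alternatives under which a member was not tested are left out of its count. The 8 RNA-seq libraries were not analysed here. Part of the marker check is not reported here.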

Additional observations from a re-analysis of the deposited data

Results flagged for a closer look

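Each of 56 groups of 4 libraries was examined for a highest or lowest value that Dixon's criterion sets apart. Chance passes this in about 1 in 20 groups, and 5 passed.

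Brg1 fl/+ replicate 1 stood apart with 215 members that no other library detected. Brg1 fl/fl replicate 2 stood below the other 3 Brg1 fl/fl libraries in the detection of members beyond 1000 bp (12.5%, against 18.2% in each of the others) and of members in 5′ UTRs (30.8%). The fold of C030013C21Rik was 6.28 in Brg1 fl/fl replicate 3, above 4.34 to 4.46 in the others, and that of Rab33b was 12.9 in Brg1 fl/+ replicate 3, below the others.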

How the results depend on the processing

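Peak lists limit what could be compared: a region without a peak may be open below a list's threshold, and the lists differ in depth. The rank of exonic against intronic regions kept its sign under 17 of 17 alternatives (-17.3 to -5.47 points, and -15.6 to -13.6 without 1 library) and passed the threshold in all but the averaged libraries 1 and 2 and 3 and 4 (-14.8, exact sign-flip p = 0.125, the smallest 4 values allow). The gap between near and distant members (27.1 to 31.6) and between distant exonic and intronic ranks (-15.6 to -11.1) held without any 1 library, and distant exonic minus intronic detection was 0.593 to 1.79. The genotype difference in detection ran from -22.4 to -2.11 without 1 library and reversed with equal list lengths (2.43 points, exact permutation p = 0.229). Exonic minus promoter detection ran from -7.57 to 0.25 without 1 library and reversed with equal list lengths (3.40). Exonic minus intronic detection ran from 0.548 (wider promoters) to 12.1 (at least 2 libraries) in all and from 5.82 to 8.90 without 1 library, and the rank of distant against near members from 5.16 to 10.6.

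The number of exonic regions was 497 at a −log10 q of 10, 371 with equal lists, 229 with wider promoter windows and 1584 with protein-coding transcripts only, and 593 to 853 without 1 library. Members in fewer Brg1 fl/fl libraries numbered 291, 90, 178 and 800 under these 4 settings. These were 58.6%, 24.3%, 77.7% and 50.5% of members, against 49.7%, 23.2%, 47.2% and 47.2% of all regions. They numbered 222 when at least 2 libraries were required (38.0%, against 47.2% of all regions, which were not so limited). Without 1 library they numbered 235 to 553 (39.6% to 65.1%, against 35.1% to 54.7%). Those in more numbered 50 at a −log10 q of 10 (10.1%, against 9.72% of all regions) and 20 with the wider promoters (8.73%, against 16.7%). They numbered 207 with protein-coding transcripts (13.1%, against 16.7%) and 100 to 200 without 1 library (11.8% to 33.7%, against 14.8% to 30.5%). Members found only in Brg1 fl/+ numbered 0 of 680 at a −log10 q of 5 (against 47 of all 13362 regions) and 0 of 371 with equal lists (52 of 9006). There was 1 of 497 at 10 (36 of 10300), 1 of 850 at 50% overlap (36 of 16566) and 1 of 828 at 25% masking (67 of 16566). With protein-coding transcripts there were 4 of 1584 (67 of 16566), and without 1 library 2 to 8 (68 to 286 of all regions). Those found only in Brg1 fl/fl numbered 1 at 50% overlap (29 of all 16566 regions) and 0 to 1 without 1 library (31 to 63 of all regions).

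In the fit, lower calls numbered 7 from recovered fragments (4.02%, against 2.50% of all regions tested) and 1 with equal lists (0.769%, against 0.906%). They numbered 0 with averaged libraries (against 0.0218%). Without 1 library they numbered 1 to 4, where 0.0435% to 0.945% of all regions were called lower. Higher calls numbered 3 with median centring (1.72%, against 1.74% of all regions) and 12 from recovered fragments (6.90%, against 7.52%). They numbered 5 from ranks (2.87%, against 2.70%) and 2 with at least 3 libraries of each genotype (0.709%, against 1.12%). There were 0 with no normalization (against 0.0871%), equal lists (against 0.453%) or averaged libraries (against 0.0435%). Without 1 library there were 0 to 1, where 0.0866% to 1.18% of all regions were called higher. The labels give the genotypes the same replicate numbers, but same-numbered libraries did not deviate together (correlations -0.07, -0.05, -0.02 and 0.01). Libraries of one genotype differed by about the sampling noise or less over the regions compared, a measure limited to called peaks. The correlations therefore cannot decide whether the numbers pair the libraries. With the replicate block the fit called 4 lower and 0 higher (Cdkn2b lost its call at an adjusted p of 0.0773 and Gmps gained one at 0.045 by limma), and the detection difference stayed at -14.1 points (exact sign-flip p = 0.5). The cause of these changes was not tested.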
